A study of Schizosaccharomyces pombe with 4 samples.

Results

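Both strands of 8 protein-coding genes of cytoplasmic mRNA decay are described here in the fission yeast Schizosaccharomyces pombe. The genes are upf1, upf2, exo2, dcp1, dcp2, edc3, lsm1 and ste13. They were chosen by name for their place in nonsense-mediated decay, decapping and 5′ to 3′ decay, with no measured value used, and all 8 of the 8 names were found among the 7023 features of the table. Strand-specific RNA-seq of polyadenylated RNA was compared between spt6-1, a prototrophic strain with a mutant allele of the histone chaperone and elongation factor gene spt6 (2 libraries), and a prototrophic wild type, WT (2 libraries). Every culture was grown in the rich medium YES at 30 °C and held at 37 °C for 2 h, so the heat is shared by the groups and no library without it enters the comparison. The labels do not say that replicates came from separate cultures, and p-values then measure only the spread between these samples, which may be technical.

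A messenger RNA that has lost its poly(A) tail is bound at its 3′ end by the Lsm1-containing ring, its cap is removed by the Dcp2 enzyme with its activator Dcp1, and the uncapped body is digested by the exonuclease Exo2, known as Xrn1 in other organisms. Edc3 and the DEAD-box helicase Ste13, the relative of budding yeast Dhh1, help decapping. Upf1, an RNA helicase, and its partner Upf2 send transcripts with an early stop codon into this route, which is called nonsense-mediated decay or NMD. The same route removes many non-coding and antisense RNAs in yeasts.

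The libraries held 16894607 to 39693042 sense reads and 2231131 to 5672959 antisense reads, recovered from RPKM, the length- and depth-scaled read values that the authors deposited. A single read per kilobase was worth 0.0278 to 0.0581 RPKM, and intervals or spreads given here do not cover PCR duplicates. As a check of the labels, the groups were apart at the mutated gene: sense RNA of spt6 was 12.7 and 8.32 RPKM in spt6-1, against 65.5 and 61.6 RPKM in WT. RPKM of spt6-1 replicate 1 were scaled by a denominator of 70.5% of its own sense reads, against 98.3% to 102% in the other 3 libraries. This sets its values higher than scaling by its own sense reads would. Its median coding gene had 28.6 sense RPKM, against 27.0 to 28.2 RPKM in the other 3. Rescaling every library to its coding reads changed no call of the 8 genes.

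The genes lie on chromosomes I and II, 4 on each, in ASM294v2 coordinates, and differ in what is annotated opposite to them. Those with convergent neighbours are introduced by the stretch that separates the 2 facing 3′ ends, because it is the border between the gene and the transcript that faces it. The sequences were read from the RefSeq genome, whose chromosome I has the same length of 5579133 bases as the table, and in which 5119 of 5123 coding structures of the table ran open from ATG to a stop codon, those of all 8 genes included. Each is given 5′ to 3′ on the plus strand, and capitals mark the 47 bases that RefSeq assigns to the long non-coding RNA SPNCRNA.2353, which is no row of the table and runs antisense over upf1.
Between cph1 and upf1, 159 bases, chrI:800982-801140: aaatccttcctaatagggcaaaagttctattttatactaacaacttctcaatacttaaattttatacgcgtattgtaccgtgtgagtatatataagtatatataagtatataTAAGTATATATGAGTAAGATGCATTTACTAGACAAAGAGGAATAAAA
Between exo2 and SPAC17A5.15c, 139 bases, chrI:1782741-1782879: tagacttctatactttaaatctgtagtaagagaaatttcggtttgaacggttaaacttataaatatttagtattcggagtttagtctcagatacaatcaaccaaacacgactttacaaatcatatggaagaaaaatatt
Between gpi3 and lsm1, 12 bases, chrII:1284326-1284337: ttactaaacttt
RefSeq places no feature in the stretch beside exo2 or in the 12 bases beside lsm1.

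Sense log2 changes of the decay genes ran from -0.37 (upf1) to 0.67 (dcp1), while their antisense RNA fell into 2 kinds. No gene passed the test on the sense strand, and antisense RNA rose over upf1, exo2 and upf2 (over upf2 not after centring or quantile normalization) but did not pass over dcp1, dcp2, edc3, lsm1 and ste13. The test was limma on log2(RPKM + 0.5), two-sided, with Benjamini-Hochberg adjustment over all features tested and a threshold of 0.05, and its fold changes include that pseudocount. A feature entered the sense test if 2 or more libraries reached 1 RPKM, and a protein-coding gene entered the antisense test if 2 or more reached 0.5 RPKM. In such bulk RNA, fewer cells with a transcript and less of it per cell cannot be told apart.

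**Figure D1:**
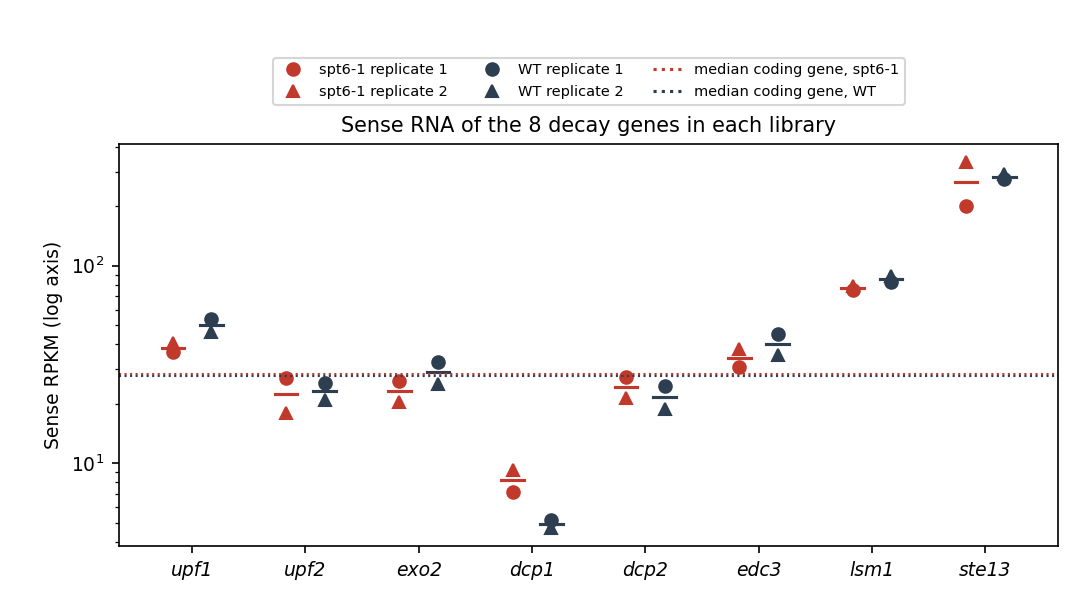
Sense RPKM of the 8 genes on a log axis, with circles for replicate 1, triangles for replicate 2, bars for the mean of each group and dotted lines for the median protein-coding gene. The spt6-1 points lie left of the WT points. The gene ste13 is highest at 199.6 to 334 RPKM and dcp1 lowest at 4.71 to 9.21 RPKM. Points of the strains overlap for upf2, exo2, dcp2, edc3 and ste13.

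The NMD helicase gene upf1 (SPAC16C9.06c, chromosome I, 801141 to 804123, minus strand, no intron) had sense levels of 36.4 and 40.6 RPKM in spt6-1, against 54.0 and 45.9 RPKM in WT. Both spt6-1 libraries were below both WT libraries, but the log2 change of -0.37 ± 0.21 (standard error) did not pass (limma adjusted p 0.231). Antisense RNA at the same locus was 12.6 and 12.3 RPKM in spt6-1, against 0.401 and 0.390 RPKM in WT. The groups lie far apart, with 1056 and 632 antisense reads in spt6-1 and 43 and 20 in WT. The mean antisense level was 31.5 times higher in spt6-1, and limma gave a 14.5-fold rise (log2 3.85 ± 0.20, adjusted p 7.21e-07). Of the reads on either strand of upf1, 25.8% and 23.2% were antisense in spt6-1, against 0.737% and 0.842% in WT.

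The upf1 locus had no opposite-strand feature in the table. RefSeq, a later annotation, holds SPNCRNA.2353 on the opposite strand over 2756 bases, or 92.4%, of the locus, the RNA marked by capitals in the sequence above. Its neighbour cph1, a protein-coding gene that ends 159 bases away on that strand, had sense levels of 104.3 and 170.5 RPKM in spt6-1, against 109.2 and 127.2 RPKM in WT. The role of RNA from cph1 in the antisense signal was not tested.

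Its partner gene upf2 (SPAC19A8.08, chromosome I, 2468576 to 2472061, minus strand, no intron) had sense levels of 27.0 and 18.0 RPKM in spt6-1, against 25.3 and 20.9 RPKM in WT. These ranges overlap (log2 -0.06 ± 0.25, limma adjusted p 0.881). Antisense RNA was 1.82 and 1.16 RPKM in spt6-1, against 0.112 and 0.0667 RPKM in WT, or 178 and 70 reads against 14 and 4. The rise passed the test at 3.34-fold (log2 1.74 ± 0.21, adjusted p 3.19e-05), and the ratio of means was 16.7, the WT level being below the pseudocount. This rise is close to that of the median coding gene (log2 1.58), and its direction depends on the scaling: centring each library on its median antisense level gave -0.35, and quantile normalization 0.02. The antisense share of the reads was 6.32% and 6.07% in spt6-1, against 0.440% and 0.319% in WT. The next coding gene past the 3′ end of upf2, SPAC19A8.09, lies on the same strand at 182 bases, so the nearest coding gene does not face this end. RefSeq has the non-coding SPNCRNA.3110 antisense to 696 bases, or 20.0%, of the locus, at its 5′ end.

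The exonuclease gene exo2 (SPAC17A5.14, chromosome I, 1778445 to 1782740, plus strand, 2 introns) had sense levels of 26.1 and 20.3 RPKM in spt6-1, against 32.6 and 25.1 RPKM in WT. The libraries overlap, and the change did not pass (log2 -0.31 ± 0.23, limma adjusted p 0.355). Antisense RNA was 5.81 and 3.92 RPKM in spt6-1, against 0.0843 and 0.0812 RPKM in WT, from 699 and 291 reads against 13 and 6. The ratio of means was 58.8, and limma gave 9.07-fold (log2 3.18 ± 0.23, adjusted p 2.23e-06). Of the reads at the locus 18.5% and 16.4% were antisense in spt6-1, against 0.263% and 0.329% in WT. The convergent neighbour across the 139 bases printed above, SPAC17A5.15c, had higher levels than exo2 itself, with 354 and 285 sense RPKM in spt6-1 and 369.6 and 417 sense RPKM in WT. RefSeq has the non-coding RNAs SPNCRNA.2799, SPNCRNA.2800, SPNCRNA.2801, SPNCRNA.2802 and SPNCRNA.2803 on the opposite strand, each over 6.05% to 13.1% of the locus.

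The decapping enzyme gene dcp2 (SPAC19A8.12, chromosome I, 2462202 to 2465087, minus strand, no intron) had sense levels of 27.4 and 21.4 RPKM in spt6-1, against 24.6 and 18.8 RPKM in WT. These overlap (log2 0.17 ± 0.23, limma adjusted p 0.614). Of the dcp2 locus 67 bases, or 2.32%, also belong to usp101 on the same strand, and sense reads there cannot be assigned to either gene. Antisense RNA was 3.68 and 3.35 RPKM in spt6-1, against 2.60 and 2.52 RPKM in WT. The spt6-1 libraries were above the WT libraries by a small step that did not pass (log2 0.39 ± 0.20, adjusted p 0.0936). The coding gene SPAC19A8.11c lies opposite 2837 bases, or 98.3%, of the dcp2 locus as the table gives it, while in RefSeq the 2 genes do not overlap. The antisense reads of dcp2 came to 19.4% and 19.4% of the sense reads of SPAC19A8.11c in spt6-1 and to 16.1% and 17.9% in WT.

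The activator gene dcp1 (SPBC3B9.21, chromosome II, 3996528 to 3997467, plus strand, 1 intron) had the lowest sense level of the 8, with 7.15 and 9.21 RPKM in spt6-1, against 5.17 and 4.71 RPKM in WT. Both spt6-1 libraries were above both WT libraries, and the gene lay just outside the threshold (log2 0.67 ± 0.21, limma adjusted p 0.0539). Quantile normalization turned its direction, to -0.021. It rests on 136 and 108 reads in spt6-1 and 126 and 55 in WT, and 67 bases at its start also belong to SPBC3B9.04 on the same strand, so reads there cannot be assigned to either gene. Antisense RNA was 1.60 and 1.97 RPKM in spt6-1, against 1.90 and 1.36 RPKM in WT, with overlapping libraries (log2 0.11 ± 0.23, adjusted p 0.669). Antisense reads made up 23.6% and 22.9% of the reads of dcp1 in spt6-1 and 33.7% and 28.6% in WT, where they were the highest shares of the 8 genes. RefSeq has SPNCRNA.6385 antisense to 849 bases, or 90.3%, of this locus, a coverage close to that over upf1.

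The decapping enhancer gene edc3 (SPBC18E5.11c, chromosome II, 2092551 to 2095975, minus strand, 1 intron) had sense levels of 30.5 and 37.8 RPKM in spt6-1, against 45.0 and 35.3 RPKM in WT. The libraries overlap (log2 -0.23 ± 0.23, limma adjusted p 0.490). Antisense RNA was 4.89 and 4.19 RPKM in spt6-1, against 3.83 and 4.11 RPKM in WT (log2 0.17 ± 0.20, adjusted p 0.434). The coding gene SPBC18E5.10 lies opposite over 3160 bases, or 92.3% of the locus, and the 2 rows count nearly the same reads. Antisense reads of edc3 numbered 469 and 248 in spt6-1 and 471 and 242 in WT, while sense reads of SPBC18E5.10 numbered 468 and 247 in spt6-1 and 469 and 240 in WT. The antisense value of edc3 is thus not a measurement separate from the sense value of SPBC18E5.10.

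The gene lsm1 (SPBC3D6.08c, chromosome II, 1284338 to 1285133, minus strand, 3 introns), which encodes the subunit that sets the cytoplasmic ring apart from the nuclear one, had sense levels of 75.0 and 78.6 RPKM in spt6-1, against 83.1 and 89.1 RPKM in WT. The spt6-1 libraries were below the WT libraries by a difference that did not pass (log2 -0.16 ± 0.21, limma adjusted p 0.604). Antisense RNA over lsm1 was the most abundant of the 8 genes in either strain, at 24.4 and 19.3 RPKM in spt6-1, against 18.3 and 14.2 RPKM in WT. The spt6-1 libraries lie above those of WT without passing (log2 0.42 ± 0.22, adjusted p 0.102; 0.0475 without WT replicate 1), and 29.3% and 23.9% of the reads were antisense in spt6-1, against 21.9% and 16.9% in WT. The WT mean was at the 93.7th percentile of antisense levels among protein-coding genes, yet neither the table nor RefSeq has a feature opposite to lsm1. The convergent gene gpi3, which ends 12 bases away, had lower sense levels than that antisense RNA, with 7.69 and 5.36 RPKM in spt6-1, against 11.2 and 8.14 RPKM in WT. Antisense RNA over gpi3, on the strand of lsm1, was 13.2 and 13.3 RPKM in spt6-1, against 2.75 and 1.59 RPKM in WT.

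The helicase gene ste13 (SPBC776.09, chromosome II, 3191319 to 3193807, plus strand, 2 introns) was the most abundant on the sense strand, at 199.6 and 334 RPKM in spt6-1, against 274.5 and 290.4 RPKM in WT. The spt6-1 libraries lie on either side of the WT pair, so the group difference is within the spread (log2 -0.13 ± 0.33, limma adjusted p 0.799). Antisense RNA was 5.25 and 4.37 RPKM in spt6-1, against 4.25 and 4.44 RPKM in WT (log2 0.13 ± 0.20, adjusted p 0.558), and only 1.34% to 2.67% of the reads at the locus were antisense in the 4 libraries. The 3′ end of ste13 overlaps the convergent gene cog6 over 555 bases, or 22.3% of the locus. Sense levels of cog6 were 15.6 and 13.8 RPKM in spt6-1, against 23.1 and 22.7 RPKM in WT, and which antisense reads lie in the overlap cannot be read from the table.

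**Figure D2:**
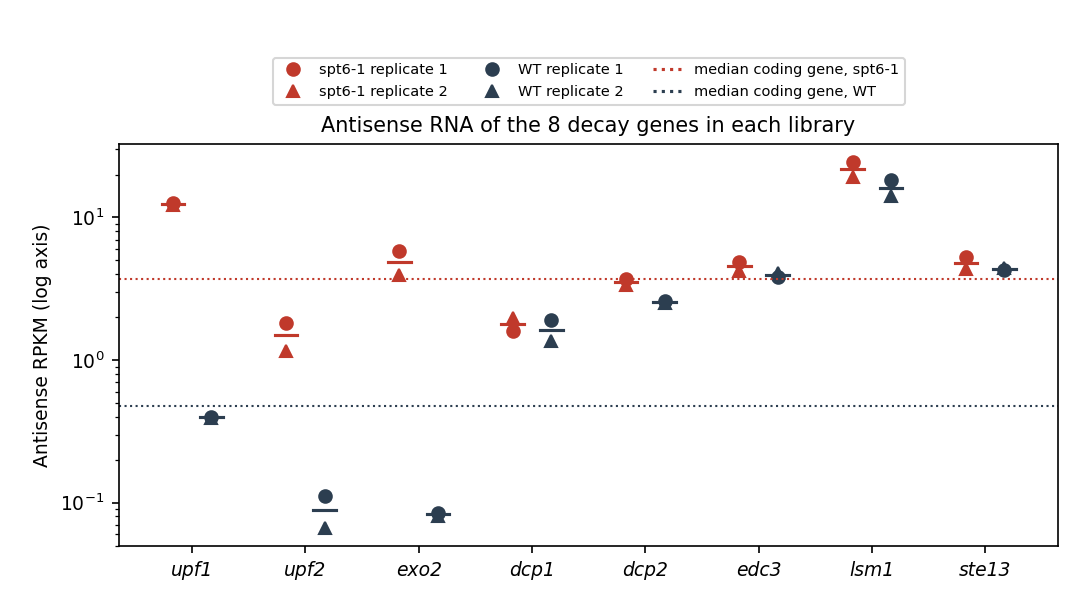
Antisense RPKM of the 8 genes on a log axis, with the same symbols; each group's dotted line is the median protein-coding gene, at 3.97 and 3.43 RPKM in spt6-1 and 0.496 and 0.462 RPKM in WT. In WT upf1, upf2 and exo2 lie below that median and the other 5 genes above it, while in spt6-1 the 8 genes span 1.16 to 24.4 RPKM.

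Across the 8 genes, limma called 0 higher and 0 lower on the sense strand, where 21.8% of all features were higher and 6.67% lower, and 12.1% and 8.20% of protein-coding genes. Taken without adjustment, p was under 0.05 for 1 higher gene (dcp1) and 0 lower. The voom test on recovered reads also called 0 and 0 of the 8, beside 21.9% of features higher and 6.86% lower. A count of 0 in 8 genes is near the coding background. The median sense log2 change was -0.15 for the 8 genes, beside 0.16 for the features as a whole and 0.03 for the coding ones. Ordered by mean sense RPKM, the genes ran ste13, lsm1, upf1, edc3, dcp2, exo2, upf2 and dcp1 in spt6-1, and ste13, lsm1, upf1, edc3, exo2, upf2, dcp2 and dcp1 in WT. Those of dcp2, exo2 and upf2 that stand next to each other in that order have overlapping libraries in either strain, and upf1 and edc3 overlap in spt6-1 but not in WT.

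On the antisense strand 3 of the 8 genes were called higher, where 81.9% of protein-coding genes were, and 0 lower, where 1.65% were. The unadjusted count of lower genes was 0 as well, and so was that of voom. All 8 passed the filter on low values, but upf1, upf2 and exo2 passed it only through the spt6-1 libraries and therefore had to differ. With no filter the same genes were called among 5117 tested, with adjusted p-values of 2.93e-06, 8.86e-05 and 7.21e-06, and 80.6% of genes were higher and 1.52% lower. The median protein-coding gene rose by 1.58 on the antisense log2 scale, so upf1 and exo2 rose more than the median gene, upf2 about as much, and the other 5 less. With each library centred on its median antisense level, 2 of the 8 (upf1 and exo2) were higher and 5 lower. That setting called 961 of all 4728 coding genes tested higher and 2406 lower, so the counts in the 8 are near the background. Their antisense changes stood at percentile 97.1 for upf1, 90.9 for exo2 and 55.9 for upf2 among coding genes, and between percentiles 9.14 and 15.9 for dcp1, ste13, edc3, dcp2 and lsm1. For the log2 difference of antisense and sense RNA the calls were again 3 higher and 0 lower, where 71.7% of coding genes were higher and 6.04% lower.

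**Figure D3:**
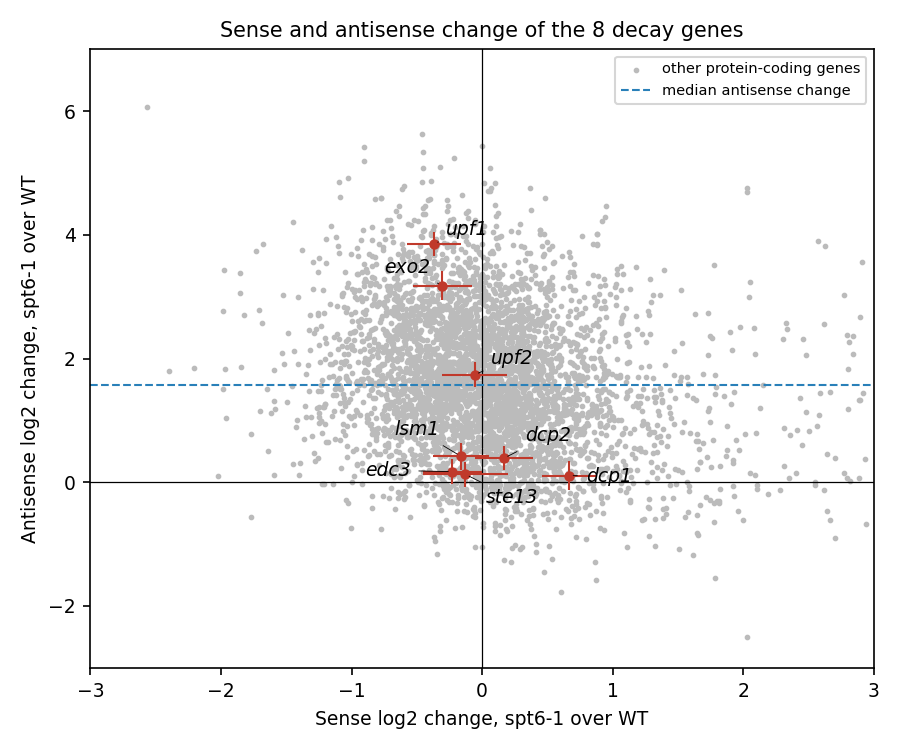
Log2 change of sense RNA (horizontal) and of antisense RNA (vertical), spt6-1 over WT, with the 8 genes in red with standard errors and 4608 points for protein-coding genes in grey (74 lie outside the axes). The dashed line is the median antisense change of 1.58: upf1 and exo2 lie above it, upf2 near it, and the other 5 genes near 0, while all 8 stay within 0.67 of 0 on the sense axis.

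The table places a coding gene opposite some of the 8 loci and not others, and lsm1 and dcp1 have none there, like upf1, upf2 and exo2. Of the 3 genes with an opposite coding gene over 200 bases or more, dcp2, edc3 and ste13, 0 were called. Without the filter, 51.3% of the 1204 coding genes with such an overlap were higher in antisense RNA and 4.40% lower, against 89.7% higher and 0.616% lower of the 2920 coding genes with no opposite coding gene. Of the 5 decay genes with no such overlap 3 were called, and lsm1 and dcp1 were not. The 5 genes without a call already had 1.36 to 18.3 antisense RPKM in WT, where upf1, upf2 and exo2 had 0.0667 to 0.401 RPKM. Non-coding RNAs that RefSeq adds opposite to coding genes are common, being found at 63.5% of the 5123 coding loci and over at least 50% of the locus at 24.1%, and among the 8 genes they were found at upf1, upf2 and exo2, and also at dcp1 and ste13.

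**Figure D4:**
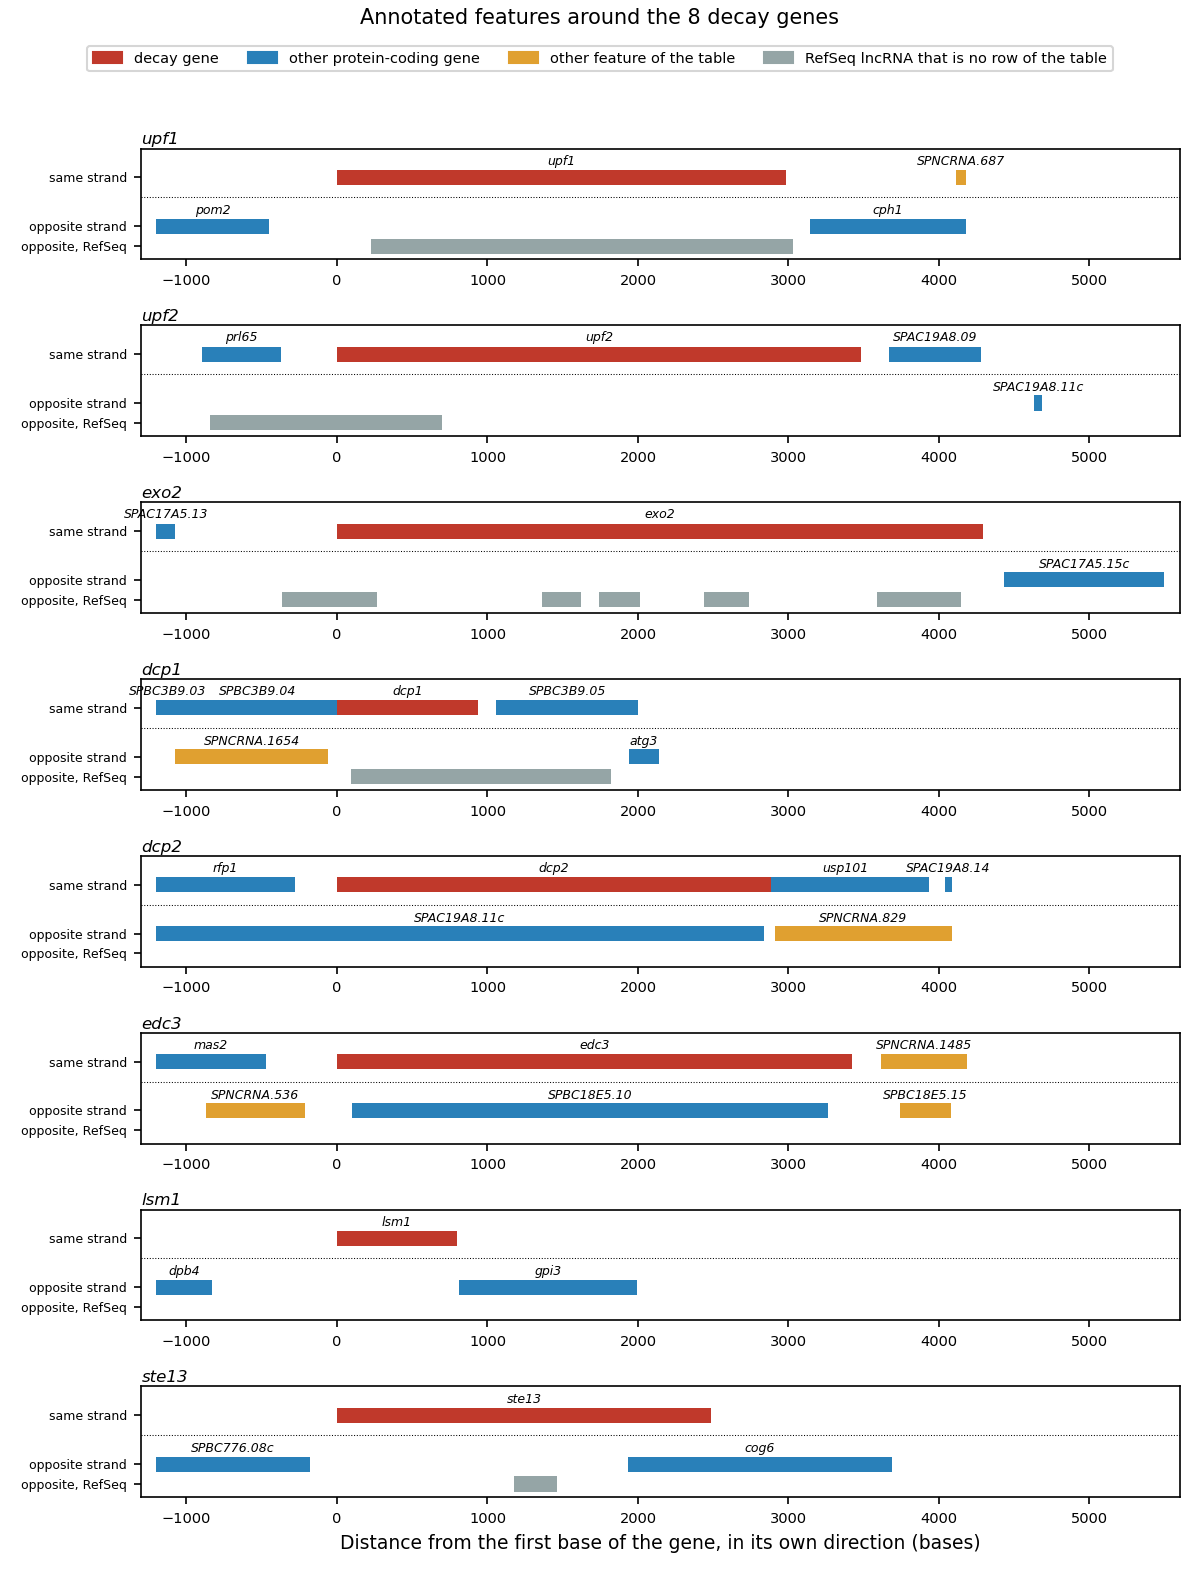
Features around each of the 8 genes, in bases from the first base of the gene in its own direction, with features on the same strand above the dotted line and on the opposite strand below it. The opposite strand of dcp2 and edc3 is filled by a coding gene over 98.3% and 92.3% of the locus, that of ste13 over 22.3%, and that of upf1, upf2, exo2, dcp1 and lsm1 holds no feature of the table; grey bars are RefSeq non-coding RNAs.

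For each gene the coding gene nearest in pattern was found by the Euclidean distance over 8 values, the log2(RPKM + 0.5) of both strands in the 4 libraries. The closest match was adn2 for upf2 at a distance of 0.332, and the most distant was met14 for ste13 at 0.948. SPAC3H5.08c was nearest to exo2 at 0.422, with antisense levels of 5.48 and 4.06 RPKM in spt6-1, against 0.0877 and 0.0666 RPKM in WT. SPCC1393.09c was nearest to upf1 at 0.675, with antisense levels of 13.9 and 13.7 RPKM in spt6-1, against 0.332 and 0.308 RPKM in WT. The others were ptc4 for dcp2, SPCC663.10 for edc3, gos1 for dcp1 and cwf14 for lsm1, at 0.615 to 0.916.

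The wider route was described by a list of 36 names, chosen with earlier results of these data known. Of these names 25 were found by symbol. On the sense strand 1 of the 25 was called lower and 0 higher by limma (1 higher and 2 lower by voom), and their median log2 change was -0.10. Before adjustment 2 were higher and 6 lower at 0.05. These counts stand beside 12.1% of coding genes called higher and 8.20% lower. The 1 lower gene of 25 is near the background, and the 0 higher are below it in a list this small. The gene called was mot2, whose product belongs to the Ccr4-Not complex that shortens poly(A) tails. It had 25.2 and 19.6 RPKM in spt6-1, against 40.1 and 35.1 RPKM in WT (1.67-fold lower, adjusted p 0.0411), and lost its call when any of the 4 libraries was left out (0.0650 to 0.188) and with no filter (0.0502) or no trend (0.0574). Of the same complex, not2 had 20.2 and 19.3 RPKM in spt6-1, against 45.5 and 28.3 RPKM in WT (adjusted p 0.0509). The scaffold gene not1 had 31.7 and 23.1 RPKM in spt6-1, against 42.9 and 46.8 RPKM in WT (adjusted p 0.0554). The deadenylase gene caf1 differed in the other direction, with 57.3 and 75.7 RPKM in spt6-1 and 39.4 and 40.9 RPKM in WT, and did not pass (adjusted p 0.0584).

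Looking up the missing names in RefSeq added 10 genes, pan3 among them. The gene ppk26, which had been listed beside pan3 but is another gene in RefSeq, was left out. That list of 34 was made after the data were seen. On the sense strand 1 of it was higher and 3 lower, beside 12.1% and 8.20% of coding genes. The lower count is near that share, and the higher count is below it in a list this small. Besides mot2, the nuclease gene dis32, of the Dis3L2 family that degrades RNA from its 3′ end, had 6.62 and 6.13 RPKM in spt6-1, against 15.1 and 12.1 RPKM in WT (2.04-fold lower, adjusted p 0.00949). The helicase gene ski2, whose product feeds mRNA into the cytoplasmic exosome, had 10.8 and 8.28 RPKM in spt6-1, against 17.5 and 17.3 RPKM in WT (1.80-fold lower, adjusted p 0.0196). The deadenylase subunit gene pan3 was higher, with 85.7 and 52.7 RPKM in spt6-1 and 34.4 and 35.6 RPKM in WT (1.91-fold, adjusted p 0.0451), and lost its call under 5 other filters or scalings (0.0560 to 0.0691). Without WT replicate 1 the adjusted p was 0.0588 for dis32, 0.0785 for ski2 and 0.136 for pan3, and without WT replicate 2 it was 0.0685 for ski2 and 0.107 for pan3. Without spt6-1 replicate 2 it was 0.0508 for dis32 and 0.107 for ski2, and without spt6-1 replicate 1 it was 0.181 for pan3.

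Antisense RNA of the wider list rose at most genes, as it did across the coding genes. Of 22 tested 20 were higher and 1 lower, with a median log2 change of 1.78 beside 1.58 for all coding genes, and with no filter 22 of 25 were higher and 1 lower. Of all coding genes 81.9% were higher, and 80.6% with no filter, so these counts are near the background. With each library centred on its median antisense level, 6 of the 22 were higher and 11 lower, beside 961 higher and 2406 lower of all 4728 coding genes tested. By role, 9 of 9 genes listed under deadenylation were higher (ppk26 among them, which is another gene). So were 3 of 3 genes of 3′ decay and 3 of 3 genes of mRNA-binding factors. All genes in these counts were under 0.5 antisense RPKM in both WT libraries. They passed the filter only through the spt6-1 libraries and therefore had to differ. Also higher were 2 of 2 tested genes of termination and NMD and 3 of 5 tested genes of the Lsm rings and decapping activators. Of these, sup35 and lsm7 were likewise under 0.5 RPKM in both WT libraries. The genes named next had the smallest adjusted p of the list. The Pan2 nuclease gene ubp13 had antisense levels of 11.4 and 9.04 RPKM in spt6-1, against 0.391 and 0.292 RPKM in WT (12.7-fold, limma adjusted p 1.09e-06). For caf1 the antisense levels were 7.13 and 6.27 RPKM in spt6-1, against 0.130 and 0.116 RPKM in WT (11.5-fold, adjusted p 1.08e-06). The gene sum2, whose product is related to decapping factors of the Lsm14 family, had 14.9 and 9.53 RPKM in spt6-1, against 0.343 and 0.745 RPKM in WT (12.1-fold, adjusted p 2.65e-06). The Ski complex gene rec14 had 3.32 and 3.18 RPKM in spt6-1, against 0.0719 and 0.150 RPKM in WT (6.15-fold, adjusted p 2.59e-06). Of these, ubp13, caf1 and rec14 passed the filter only through the spt6-1 libraries. With no filter the limma adjusted p was 3.76e-06 for ubp13 and for caf1, 8.76e-06 for sum2 and 7.82e-06 for rec14.

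The gene called lower was lsm4, a subunit of the Lsm rings, with antisense RNA of 11.9 and 15.1 RPKM in spt6-1, against 32.2 and 25.1 RPKM in WT (2.08-fold lower, limma adjusted p 0.00139), and 2847 bases of another coding gene lie opposite to it. In the list of 34 made after the data were seen, dis32 rose most on the antisense strand. It had 20.7 and 14.8 RPKM in spt6-1, against 0.0767 and 0.107 RPKM in WT (30.4-fold, limma adjusted p 6.57e-07, or 2.93e-06 with no filter). All 4 genes of that list with a sense call were higher in antisense RNA: dis32, ski2 and mot2, which were lower in sense RNA, and pan3, which was higher. So were 29 of the 31 tested genes of the list and 81.9% of coding genes, so this count is near the background. For ski2 the antisense levels were 31.9 and 30.1 RPKM in spt6-1, against 2.87 and 2.88 RPKM in WT. For pan3 they were 4.92 and 2.91 RPKM in spt6-1, against 0.0562 and 0.0671 RPKM in WT. The gene mot2 had 2.43 and 2.42 antisense RPKM in spt6-1, against 0.0142 and 0.0891 RPKM in WT. Of these genes, dis32, pan3 and mot2 passed the antisense filter only through the spt6-1 libraries and therefore had to differ.

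**Figure D5:**
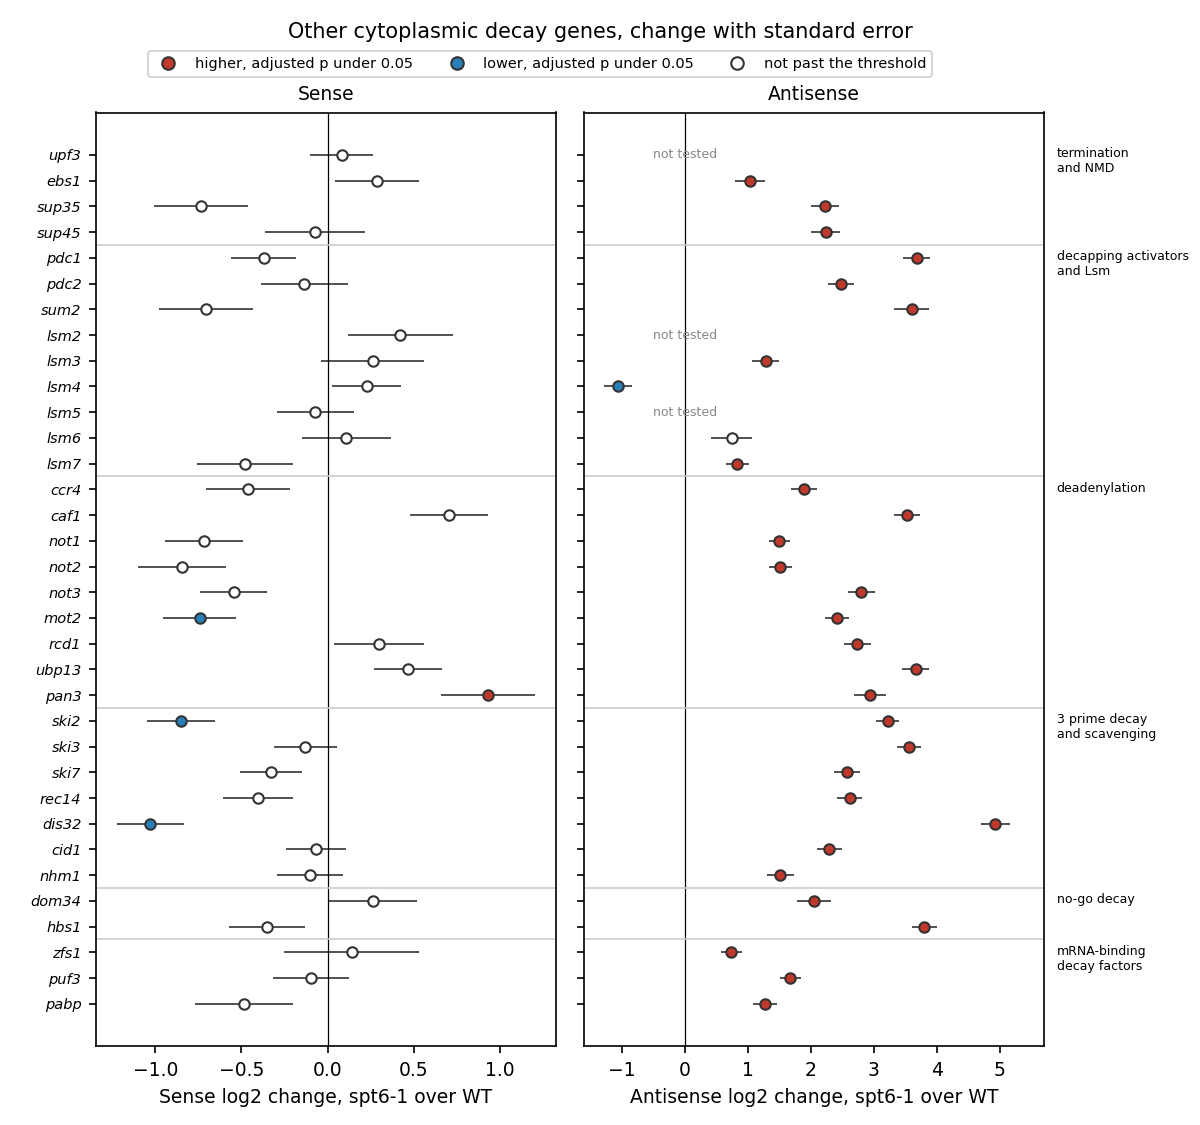
Log2 change with standard error, spt6-1 over WT, of the 34 other cytoplasmic decay genes, sense on the left and antisense on the right, grouped by role; filled points passed an adjusted p of 0.05. On the left 1 gene is filled as higher (pan3) and 3 as lower (mot2, ski2, dis32), and on the right 29 of 31 tested genes are higher and lsm4 is lower.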

How the data were processed

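The aligner TopHat and the build ASM294v2 are named in the submitters' processing notes, and the sources used here do not give the counter, annotation or read filters. The authors deposited RPKM per feature and strand for each library. The values showed that sense RPKM divide by exon length and antisense RPKM by locus length, with 1 denominator per library, and with these 100% of values were whole reads within 0.01 read. A deposited junction list holds positions and was not used.

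Values were tested as log2(RPKM + 0.5) with limma 3.58.1 in R 4.3.3 (eBayes with trend), spt6-1 over WT, on all features at 1 RPKM (sense) or all coding genes at 0.5 RPKM (antisense) in at least 2 libraries, with no replicate block. The tests were checked on simulated data. The 8 genes were set by name with no measured value used, while the wider list was chosen with earlier results of these data known. Named genes are the 8, the features over or beside them, and the 4 genes of the wider list with the smallest adjusted p per strand; other genes named were chosen after their values were seen. Promoter and protein sequences were not used here. Alternatives changed the pseudocount, filter, trend, scaling, tool, block and libraries.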

Additional observations from a re-analysis of the deposited data

How the results depend on the processing

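Antisense calls of upf1 and exo2 held under all 14 alternatives, with log2 changes of 1.76 to 4.95 and 1.09 to 5.79, and no sense change of the 8 genes passed under any except dcp1 with a replicate block. Antisense changes of the other 6 depended on scaling. With each library centred on its median antisense level, a shift larger than the rise of 1.58 of the median gene, upf2 (-0.35), dcp1 (-1.98), dcp2 (-1.70), edc3 (-1.92), lsm1 (-1.67) and ste13 (-1.96) took a negative antisense change. The counts were then 5 of the 8 lower, 6 of the wider list higher and 11 lower, and 5 of the 8 lower in the difference of strands. Of all 4728 coding genes tested 961 were then higher and 2406 lower. In the difference of strands 941 of 4682 were higher and 1904 lower. After quantile normalization dcp1 (-1.73), dcp2 (-1.46), edc3 (-1.56), lsm1 (-0.18) and ste13 (-1.56) were negative, with 4 of the 8 lower, 8 of the list higher and 7 lower, 5 of the 8 lower in the difference, and a sense change of -0.021 for dcp1. Of all 4728 coding genes tested 1316 were then higher in antisense RNA and 1494 lower. In the difference 1243 of 4682 were higher and 1257 lower. With denominators set to coding reads, dcp2 was at -0.0072 in sense, and dcp1 (-0.026) and ste13 (-0.033) in antisense. Those denominators multiply all values of a library by a single factor. Coding reads were 112% of the deposited denominator in spt6-1 replicate 1, against 87.1% to 91.1% in the other libraries. The cause of the reversals at dcp1, dcp2 and ste13 was not tested.

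With a library left out, the lone library of a group was assumed to vary like the pair of the other group. The sense change of dcp2 was -0.0069 without spt6-1 replicate 1 and -0.021 without WT replicate 2 (-0.021 to 0.36), and that of ste13 was 0.24 without spt6-1 replicate 1 (-0.50 to 0.24). That of upf2 was 0.23 without spt6-1 replicate 2 and 0.079 without WT replicate 1 (-0.34 to 0.23), and the antisense change of dcp1 was -0.010 without spt6-1 replicate 2 and -0.074 without WT replicate 2 (-0.074 to 0.29). None of these was called. The antisense change of lsm1 passed without WT replicate 1 (adjusted p 0.0475).

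The sense count of the wider list was small and moved easily. The 1 lower gene became 0 with no filter or no trend, 2 with a stricter filter or by voom (1 higher), 4 with median centring or quantile normalization, 3 with coding-read denominators, 0 to 1 with a library left out, and 3 (1 higher) in the list extended through RefSeq.

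Replicate numbers are shared between the groups but no label pairs the libraries; the differences between replicates 1 and 2 correlated across features between the groups at 0.323 (sense) and 0.202 (antisense). A replicate block gave 1 of the 8 higher in sense (dcp1, adjusted p 0.0401), 4 higher in antisense (lsm1 added, 0.0324), 1 lower in the difference of strands, and 1 higher and 3 lower in the list.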
